A study of Homo sapiens with 13 samples.

Results

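FCCP alone was set against control in AC16 cells, a comparison of 3 libraries labelled FCCP with 3 labelled control. These are 6 of the 13 RNA-seq libraries in the series. AC16 is an established human line made by fusing adult ventricular heart cells with an SV40-transformed fibroblast line. All 6 libraries carry the same cell type label, myocyte, and the same genotype label, wildtype. The other 7 libraries came from cells given optogenetic mitochondrial preconditioning, 4 without and 3 with FCCP, and serve here for a shared estimate of the spread, for a check of library likeness and for a comparison of the FCCP effect in both settings. The design text speaks of control cells and of cells expressing mOpto, the light-driven construct. The labels do not say whether the control and FCCP cells carried it or were lit, nor the dose and duration of FCCP. They also do not say whether replicates were cultured separately, so a p-value here reflects the spread of these libraries, which may be technical.

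FCCP is a lipid-soluble weak acid that carries protons across the inner mitochondrial membrane and so collapses the gradient that drives ATP synthesis. Cells are known to answer such uncoupling through energy sensing by AMPK, through the OMA1, DELE1 and HRI relay that raises ATF4, and through PINK1, which marks depolarised mitochondria for removal. Cholesterol and fatty acid genes are run by the SREBP factors, which INSIG1 and sterols hold in the endoplasmic reticulum. Early-response genes such as FOSB and ARC are copied within minutes of calcium, cAMP or MAP kinase signals and their messages are short-lived.

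The 6 libraries held between 14970803 and 19342485 counts in genes. Libraries labelled alike differed well beyond counting noise, and 1 library in each group stood apart. Control 3 was closest to a preconditioned library (Pearson r across genes 0.967, against 0.946 with its nearest control), and FCCP 1 was closest to preconditioning+FCCP 3 (0.965, against 0.958 with its nearest FCCP library). Control 3 lay alone on the first principal component of the 6 libraries (36.2% of the variance) and FCCP 1 at one end of the second (27.7%). Reads aligned to several places made up 4.0% in control 3, against 7.13 to 11.5% in the other 5. The labels give no batch, and whether control 3 and FCCP 1 were handled apart from the rest or exchanged with other libraries was not tested, so each group value rests on the labels as given. Counts are therefore given with these libraries and, where it matters, also without both.

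The label myocyte was checked against 21 cardiomyocyte genes. Their summed level was 11.8, 12.3 and 14.96 CPM in the controls (CPM, a gene's counts scaled to a fixed library total) and 6.94, 8.10 and 11.2 CPM in FCCP, and only 7 of the 21 had enough counts to be tested. On that list TNNT2, MYH6, MYL7 and TBX5 had 0 counts in all 6 libraries. TTN was present, at 3.33, 2.00 and 9.39 CPM in the controls and 1.53, 2.76 and 2.90 CPM in FCCP. GATA4 was at 0.516, 6.25 and 0.563 CPM in the controls and 0.0694, 0.197 and 0 CPM in FCCP. All 14 fibroblast genes were tested and their summed level was 12204, 12935 and 5970.5 CPM in the controls and 7696, 9659.5 and 9698 CPM in FCCP. None of the cardiomyocyte, fibroblast (median log2 change 0.10) or 10 smooth muscle genes (0.24) was called, nor any of the 3 immune genes tested of 11, whose sum stayed between 3.52 and 9.80 CPM. Of 8 endothelial genes tested, EGFL7, a secreted vessel-associated factor, rose (log2 change 1.11), while the defining genes CDH5 and ERG were at or below 0.29 CPM in each library. In bulk RNA a smaller share of cells of one type and less RNA per cell cannot be told apart.

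Of 16756 genes tested, 590 (3.52%) differed between FCCP and control at an adjusted p under 0.05 (edgeR's quasi-likelihood test, Benjamini-Hochberg). Of these, 268 (1.60% of genes tested) were higher in FCCP and 322 (1.92%) lower, and 328 of the 590 changed more than 2-fold. In 581 of the called genes the 3 FCCP libraries did not overlap the 3 controls, against 19.3% of all genes tested. Scaling by library totals instead of TMM gave 395 calls with 229 higher, so the split between rises and falls depends on the scaling. With both outlying libraries left out 1442 of 17412 genes (8.28%) were called, 462 of the 590 among them. No called gene changed sign when any 1 library was left out, but only 74 of the 590 (36 higher, 38 lower) kept their call in all 6 such fits: 135 remained without FCCP 2 and 156 without FCCP 3. A fit of the 6 libraries alone, with 4 residual degrees of freedom, called 17. Libraries of the preconditioned groups were more alike (lowest Pearson r within a group 0.983 without and 0.959 with FCCP) than controls (0.941) or FCCP libraries (0.952). The spread shared over all groups may therefore be smaller than that of the 6 libraries, and the p-values too small. How far this raised the number of calls was not tested.

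**Figure D1:**
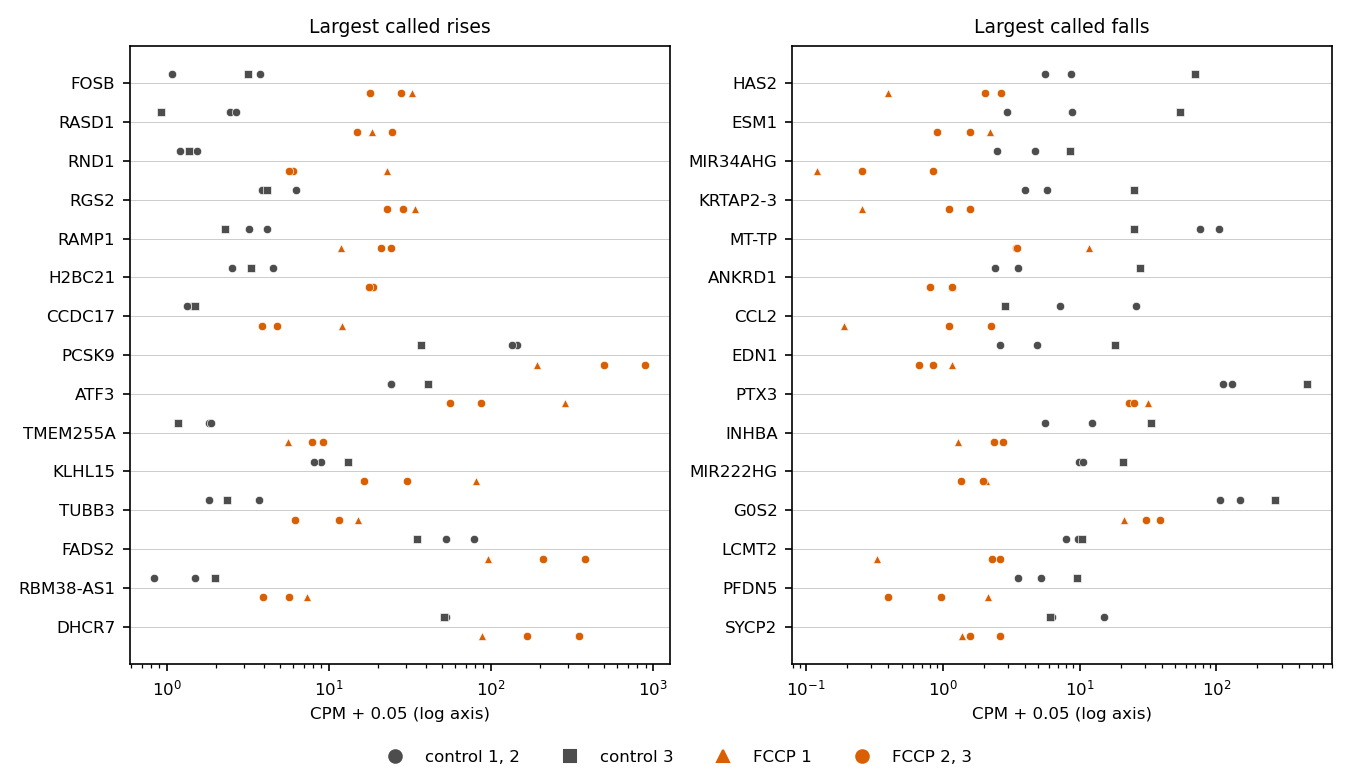
CPM plus 0.05 (log axis) of the 15 largest called rises (left) and falls (right) at a group mean of 5 CPM or more in each of the 6 libraries, 1 point per library, grey for control and orange for FCCP. The groups do not overlap in any of the 30 genes, a condition of their choice; control 3 (square) is the highest control for HAS2, ESM1 and ANKRD1, and FCCP 1 (triangle) the highest FCCP library for ATF3, RND1 and KLHL15.

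The largest rises included early-response and G-protein signalling genes. ARC, an early gene whose protein binds the cytoskeleton at synapses and is best known in neurons, measured 0.172, 0.243 and 0.250 CPM in the controls and 3.54, 2.37 and 3.38 CPM in FCCP. Its log2 change was 3.77 (SE 0.44, adjusted p 0.0019), and it rested on 11 counts in the 3 controls together and 136 in FCCP. FOSB, a partner in the AP-1 transcription factor, gave 1.03, 3.70 and 3.13 CPM in the controls and 32.5, 27.9 and 18.02 CPM in FCCP (log2 change 3.32, SE 0.72). RASD1, a Ras-like GTPase induced by hormones and cAMP, was at 2.41, 2.61 and 0.876 CPM in the controls and 18.5, 14.9 and 24.6 CPM in FCCP (3.29, SE 0.43). The FCCP libraries stood above every control in these 3 genes. RGS2, which shuts off Gq signalling, measured 6.19, 3.83 and 4.13 CPM in the controls and 33.9, 28.4 and 22.8 CPM in FCCP. RND1, a small GTPase that loosens actin fibres, gave 1.49, 1.15 and 1.31 CPM in the controls and 22.9, 5.92 and 5.66 CPM in FCCP, with FCCP 1 far above the other FCCP libraries. RAMP1, the partner that makes a receptor for the peptide CGRP, was at 4.13, 3.16 and 2.25 CPM in the controls and 11.8, 20.9 and 24.2 CPM in FCCP. ARC, RASD1, RGS2, RND1 and RAMP1 kept their calls whichever library was left out, whereas FOSB lost it without control 1 or FCCP 2.

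Other early genes moved down, so the class did not shift as one. MYC, the growth-promoting transcription factor, measured 27.5, 85.5 and 74.1 CPM in the controls and 11.5, 12.6 and 18.9 CPM in FCCP (log2 change −2.12, SE 0.40, adjusted p 0.018). FOSL1 gave 453, 315 and 449.8 CPM in the controls and 209, 167 and 133 CPM in FCCP, and FOSL2 was at 138, 153 and 176 CPM in the controls and 81.9, 90.97 and 93.3 CPM in FCCP; both are FOS-family members that persist after the first wave. In the list of 10 AP-1 factors 2 rose (FOSB and ATF3) and 2 fell (FOSL1 and FOSL2), with a list median of 0.91 against −0.04 over all genes; it was 0.50 without control 3 and 0.45 without control 3 and FCCP 1. ATF3, also a target of stress signalling, measured 24.2, 24.2 and 40.6 CPM in the controls and 285, 87.3 and 56.1 CPM in FCCP, and its call was lost without FCCP 1, control 1 or control 2. FOS itself (2.02, adjusted p 0.14) and EGR1 (1.22, 0.11) were not called: FOS gave 5.68, 59.99 and 8.32 CPM in the controls and 83.1, 127 and 89.3 CPM in FCCP, with control 2 far above the other controls. Among 18 other immediate early genes NR4A2, an orphan nuclear receptor, rose (1.88, SE 0.35), and MYC, KLF6, KLF2, KLF10 and IER3 fell, with a list median of 0.04. For both lists, the shares over all genes were 1.60% called higher and 1.92% lower. KLF2 and IER3 each kept the call in 1 of 6 fits with a library left out, KLF6 in 2.

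Signalling lists held calls in both directions except for MAP kinase feedback. Of 18 cAMP and CREB targets 4 rose (RASD1, FOSB, RGS2 and NR4A2) and 1 fell (CITED2). Of 19 G-protein genes 4 rose (RASD1, RND1, RGS2 and RAMP1) and 1 fell (RGS4). Each list had a median of 0.05. Both hold RASD1 and RGS2, so their counts are not separate. Over all genes tested 1.60% were called higher and 1.92% lower. RGS4, which like RGS2 speeds GTP hydrolysis by G-alpha proteins, moved opposite to it: it was at 46.6, 73.04 and 129.5 CPM in the controls and 12.98, 21.3 and 26.3 CPM in FCCP (log2 change −2.04, SE 0.37). None of 18 MAP kinase feedback genes rose and 2 fell, SPRED2 (−0.80) and IER3 (−1.57), with a list median of −0.55, which was −0.20 without control 3; each kept its call in 1 of the 6 fits. GADD45B, a stress-induced growth arrest gene, rose in all FCCP libraries: it measured 62.5, 94.6 and 62.9 CPM in the controls and 223, 266 and 311 CPM in FCCP (log2 change 1.86, SE 0.35). H2BC21, a histone H2B gene that can give polyadenylated message, gave 2.47, 4.49 and 3.25 CPM in the controls and 18.04, 18.8 and 17.6 CPM in FCCP, the only call among 14 clustered histone genes tested; histone genes have close copies, so its counts are less certain.

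Cholesterol synthesis was the list with the most calls. Of its 20 enzymes, all tested, 11 rose and none fell, 55.0% of the list against 1.60% of all genes called higher, and the median log2 change was 1.06. The list's summed level was 885, 1089 and 985 CPM in the controls and 1527, 2323 and 3555 CPM in FCCP, so FCCP 1 lay nearest the controls and FCCP 3 farthest. Calls numbered between 3 (without FCCP 3) and 14 (without FCCP 1) when a library was left out, and 15 with control 3 and FCCP 1 both out (median 1.20). The fit without both called 8.28% of all genes either way and drops the FCCP library nearest the controls. Members and list were chosen with earlier results of these data known, so the counts describe the list.

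Calls covered both arms of the pathway. In the mevalonate arm 6 of 8 enzymes rose. ACAT2, which joins acetyl units at the start, was at 27.98, 42.9 and 41.9 CPM in the controls and 65.5, 111 and 144 CPM in FCCP (log2 change 1.51, SE 0.28). HMGCS1, the next step, measured 33.3, 46.9 and 27.8 CPM in the controls and 43.5, 139 and 184 CPM in FCCP (1.76, SE 0.41), with FCCP 1 inside the control range. MVK, mevalonate kinase, gave 36.8, 42.4 and 25.3 CPM in the controls and 55.4, 93.3 and 169.8 CPM in FCCP. MVD, which makes the isoprene unit by decarboxylation, was at 68.6, 76.3 and 79.1 CPM in the controls and 128, 229 and 368 CPM in FCCP. IDI1, which isomerises that unit, had a log2 change of 1.49. MVD (1.69, adjusted p 0.012), MVK (1.61) and ACAT2 kept their calls in all 6 fits. From squalene onward 5 of 12 rose: FDFT1, LSS, MSMO1, SC5D and DHCR7. DHCR7, the last reductase on the way to cholesterol, measured 51.7, 52.8 and 51.1 CPM in the controls and 87.9, 167 and 349 CPM in FCCP (1.96, SE 0.38), from nearly equal controls, and lost its call without FCCP 3. CYP51A1 was the only enzyme of the 20 with a negative estimate (−0.58, adjusted p 0.72).

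**Figure D2:**
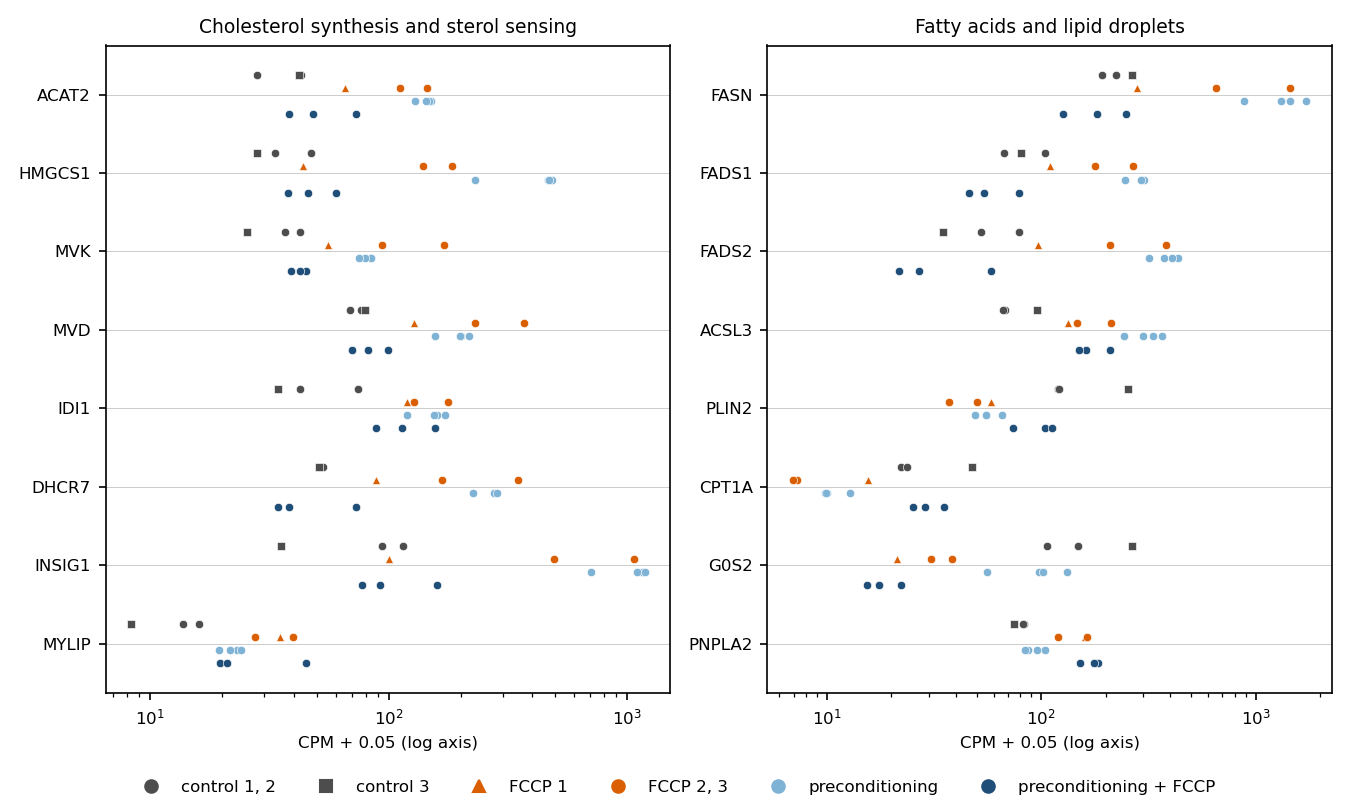
CPM plus 0.05 (log axis) of cholesterol genes (left) and fatty acid and lipid droplet genes (right), 1 point per library, with the preconditioned libraries for reference. FCCP 2 and 3 lie above every control for INSIG1 and FASN while FCCP 1 lies near the controls; PLIN2, CPT1A and G0S2 lie below every control in all 3 FCCP libraries.

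Some genes of the sterol sensing list were called too. INSIG1, the sterol-regulated anchor of the SREBP escort protein and itself an SREBP target, gave 94.03, 115 and 35.2 CPM in the controls and 99.8, 493 and 1065 CPM in FCCP (log2 change 2.76, SE 0.61, adjusted p 0.025). FCCP 1 was within the control range while FCCP 2 and FCCP 3 were far above the highest control. MYLIP, a ubiquitin ligase whose gene responds to sterol level, was at 16.0, 13.7 and 8.26 CPM in the controls and 34.8, 27.4 and 39.4 CPM in FCCP (1.42). SREBF2, which encodes the sterol SREBP, was not called (0.78, adjusted p 0.14). In all 3 of 17 genes of the list rose and none fell (median 0.44), against 1.60% of all genes called higher.

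Promoter windows are shown for MVK, MVD and INSIG1, 3 genes that rose and whose windows hold the CCAAT box. SREBPs act at promoters with the CCAAT-binding factor NF-Y, so the CCAAT box (CCAAT, or ATTGG on the other strand) was searched in the 300 bases from 250 before to 50 after each RefSeq gene start (build GRCh38.p14). It occurred in 35.7% of all 27305 such windows, 5 times in that of MVK, 3 times in that of MVD and once in that of INSIG1. The sterol element searched as TCACNCCAC, found in 1.15% of all windows, was in none of the 3. A window was found for 15 of the 20 cholesterol enzymes, too few for a share over the list. Capitals mark the CCAAT box on either strand, and no match overlaps another. The windows are chr12:109573544-109573843 (plus strand) for MVK, chr16:88663042-88663341 (minus strand) for MVD and chr7:155297628-155297927 (plus strand) for INSIG1, each covering the start of the gene's first exon and the bases before it.
MVK: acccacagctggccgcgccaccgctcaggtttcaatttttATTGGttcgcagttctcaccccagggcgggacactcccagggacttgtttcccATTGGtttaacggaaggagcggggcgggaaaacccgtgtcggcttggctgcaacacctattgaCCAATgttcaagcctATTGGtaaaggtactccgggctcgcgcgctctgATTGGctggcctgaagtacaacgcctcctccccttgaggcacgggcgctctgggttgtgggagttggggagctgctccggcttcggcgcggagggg
MVD: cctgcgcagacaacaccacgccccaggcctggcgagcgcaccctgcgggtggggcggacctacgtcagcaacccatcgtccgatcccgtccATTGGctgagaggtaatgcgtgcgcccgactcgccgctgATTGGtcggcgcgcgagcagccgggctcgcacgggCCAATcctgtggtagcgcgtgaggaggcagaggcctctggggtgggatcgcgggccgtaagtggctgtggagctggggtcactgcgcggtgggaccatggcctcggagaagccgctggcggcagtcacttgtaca
INSIG1: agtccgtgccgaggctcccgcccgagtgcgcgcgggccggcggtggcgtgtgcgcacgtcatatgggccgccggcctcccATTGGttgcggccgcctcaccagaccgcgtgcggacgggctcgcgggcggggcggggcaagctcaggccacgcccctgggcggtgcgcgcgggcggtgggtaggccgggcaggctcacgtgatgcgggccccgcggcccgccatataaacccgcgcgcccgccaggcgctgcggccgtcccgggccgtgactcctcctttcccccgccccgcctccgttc

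Fatty acid synthesis rose in 4 of 17 genes and fell in none, against 1.60% of all genes called higher. The list median was 0.34, which was 0.61 without control 3 and 0.21 without control 1. FASN, the fatty acid synthase, measured 192, 223 and 264 CPM in the controls and 281, 657 and 1454 CPM in FCCP (log2 change 1.81, SE 0.44). FADS2, which starts the desaturation of polyunsaturated fatty acids, gave 52.5, 78.9 and 34.8 CPM in the controls and 96.5, 209.8 and 383 CPM in FCCP (2.05), and FADS1, the next desaturase, was at 67.3, 104 and 80.7 CPM in the controls and 109.6, 178 and 267 CPM in FCCP (1.14). ACSL3, which loads fatty acids onto coenzyme A, measured 67.6, 66.7 and 95.8 CPM in the controls and 134, 148 and 211 CPM in FCCP (1.10). In FASN and FADS1, as in INSIG1, FCCP 3 was the highest library and FCCP 1 was close to the highest control. FASN and FADS1 kept their calls in 2 of 6 fits, FADS2 and ACSL3 in 3.

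Of 17 fatty acid oxidation and lipid droplet genes, PLIN2 and CPT1A fell and the rest were not called (median −0.18). Among all genes tested 1.92% were called lower. PLIN2, the coat protein of lipid droplets, gave 120.1, 121 and 253 CPM in the controls and 58.4, 50.4 and 37.2 CPM in FCCP (log2 change −1.76, SE 0.28, adjusted p 0.0081). CPT1A, which admits long-chain fatty acids to mitochondria, was at 22.2, 23.6 and 47.6 CPM in the controls and 15.5, 7.24 and 6.90 CPM in FCCP (−1.65, SE 0.34). Control 3 was the highest library for both, and with control 3 and FCCP 1 left out the log2 changes were −1.49 and −1.73. G0S2, the inhibitor of the triglyceride lipase ATGL, measured 149, 106 and 267 CPM in the controls and 21.2, 30.6 and 38.4 CPM in FCCP (−2.53, SE 0.35, adjusted p 0.0038). PNPLA2, which encodes ATGL, moved opposite to its inhibitor: it gave 83.3, 82.1 and 74.5 CPM in the controls and 160.5, 120.3 and 164 CPM in FCCP (0.89, SE 0.17). PLIN2 and G0S2 kept their calls in all 6 fits.

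The genes that fell included HAS2, PTX3, INHBA, F3, CCN2, EDN1 and CCL2. HAS2, the main hyaluronan synthase, was at 8.54, 5.53 and 69.7 CPM in the controls and 0.347, 1.97 and 2.62 CPM in FCCP (log2 change −4.07, SE 0.85). Control 3 was far above the other controls, and with control 3 and FCCP 1 left out the change was −1.65. PTX3, a soluble pattern-recognition protein, measured 130.1, 111 and 464 CPM in the controls and 31.8, 22.9 and 24.9 CPM in FCCP (−3.15, SE 0.49, adjusted p 0.0075), and the lowest control was well above the highest FCCP library. INHBA, a subunit of activin, gave 5.56, 12.3 and 33.1 CPM in the controls and 1.25, 2.30 and 2.69 CPM in FCCP (−3.02). F3, tissue factor, which starts coagulation, was at 255, 160.2 and 324 CPM in the controls and 78.7, 61.6 and 54.6 CPM in FCCP (−1.92, SE 0.30). CCN2, the matricellular connective tissue growth factor, measured 161, 230.3 and 298 CPM in the controls and 46.5, 93.1 and 112 CPM in FCCP (−1.45). PTX3, INHBA, F3 and CCN2 kept their calls in all 6 fits. EDN1, the vasoconstrictor endothelin precursor, gave 2.58, 4.86 and 17.96 CPM in the controls and 1.11, 0.790 and 0.621 CPM in FCCP. CCL2, a monocyte chemoattractant, was at 7.17, 25.9 and 2.82 CPM in the controls and 0.139, 1.05 and 2.21 CPM in FCCP, with control 2 the highest.

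Other falls lost their calls without control 3, and also without FCCP 2 or FCCP 3. These were ESM1 (log2 change −3.86), ANKRD1 (−3.48) and TIMP3 (−1.20). With control 3 and FCCP 1 left out the log2 changes were −2.33, −1.67 and −1.19, so that of TIMP3 hardly moved. ANKRD1, a titin-associated YAP target, measured 3.50, 2.37 and 27.7 CPM in the controls and 1.11, 1.12 and 0.759 CPM in FCCP, so controls 1 and 2 lay much nearer to the FCCP libraries than control 3 did. ESM1, a secreted proteoglycan, gave 8.72, 2.91 and 54.2 CPM in the controls and 2.15, 0.856 and 1.52 CPM in FCCP. TIMP3, a matrix-bound inhibitor of metalloproteases, was at 139, 139.9 and 234 CPM in the controls and 98.4, 61.5 and 63.9 CPM in FCCP. By list, 3 of 18 YAP and TGF-beta targets fell (median −0.42), 2 of 22 hyaluronan and proteolysis genes (−0.50), 2 of 20 growth factor ligands (−0.35) and 1 of 17 NF-kB cytokines (−0.78); none rose, and 1.92% of all genes were called lower. Without control 3 these medians were −0.17, −0.31, −0.08 and −0.19, and without FCCP 1 the YAP and TGF-beta median was −0.64 and the NF-kB median −1.21. Without control 1 the NF-kB median was −1.26. None of 28 collagens and matrix proteins was called (median 0.05).

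The IFIT genes, interferon-induced proteins that bind foreign RNA, were lower with FCCP. IFIT5 measured 26.7, 28.6 and 26.7 CPM in the controls and 7.29, 10.01 and 11.3 CPM in FCCP, with nearly equal controls (log2 change −1.52, SE 0.21, adjusted p 0.0038), and kept its call in all 6 fits. IFIT2 gave 99.1, 45.5 and 76.5 CPM in the controls and 15.6, 12.8 and 15.9 CPM in FCCP (−2.32, SE 0.47), and IFIT3 was at 112, 65.3 and 92.7 CPM in the controls and 20.5, 17.1 and 29.5 CPM in FCCP (−2.01, SE 0.42). All FCCP libraries lay below all controls in these 3 genes, but IFIT2 lost its call without FCCP 2 or FCCP 3, and IFIT3 without control 1 or FCCP 2. IFIT1 had the same order without a call: it measured 112, 59.6 and 65.2 CPM in the controls and 17.3, 26.6 and 43.3 CPM in FCCP (−1.44, adjusted p 0.096). IRF7, the factor that amplifies type I interferon, rose: it gave 33.1, 26.8 and 30.8 CPM in the controls and 77.4, 43.3 and 59.8 CPM in FCCP (0.99, SE 0.21). Over 22 interferon-stimulated genes, a list without IFIT5, 1 rose and 2 fell, and 19 of the 22 were not called. Their median was −0.15, and 0.01 without control 3. Among all genes tested 1.60% were called higher and 1.92% lower.

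The promoter windows of IFIT5 and IFIT3 show the element these genes are known for. The core of the interferon-stimulated response element was searched as GAAANNGAA (TTCNNTTTC on the other strand) and was present in 8.29% of all windows. It occurred 3 times in the IFIT5 window (chr10:89414318-89414617, plus strand, GRCh38.p14) and 2 times in that of IFIT3 (chr10:89327747-89328046, plus strand), marked in capitals.
IFIT5: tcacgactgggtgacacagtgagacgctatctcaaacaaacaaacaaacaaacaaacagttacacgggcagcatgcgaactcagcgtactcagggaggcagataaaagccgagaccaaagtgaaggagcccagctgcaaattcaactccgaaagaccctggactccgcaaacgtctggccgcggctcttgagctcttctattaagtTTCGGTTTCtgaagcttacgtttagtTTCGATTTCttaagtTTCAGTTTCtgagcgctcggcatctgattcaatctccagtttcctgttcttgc
IFIT3: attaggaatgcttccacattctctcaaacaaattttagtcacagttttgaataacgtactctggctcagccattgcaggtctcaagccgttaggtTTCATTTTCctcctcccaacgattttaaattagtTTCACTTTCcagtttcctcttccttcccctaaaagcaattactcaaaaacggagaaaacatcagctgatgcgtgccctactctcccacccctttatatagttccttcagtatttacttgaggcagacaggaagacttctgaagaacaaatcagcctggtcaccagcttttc

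The smallest adjusted p among the falls belonged to DGCR8, the RNA-binding subunit of the Microprocessor that cuts primary microRNA transcripts. DGCR8 was at 47.99, 48.1 and 68.7 CPM in the controls and 17.2, 12.2 and 14.4 CPM in FCCP (log2 change −1.91, SE 0.21, adjusted p 0.0019), with no overlap between the groups, and kept its call in all 6 fits. DROSHA, the nuclease of the same complex, measured 84.7, 89.5 and 90.3 CPM in the controls and 64.7, 53.7 and 64.5 CPM in FCCP (−0.53, adjusted p 0.058), and its 3 FCCP values lay below the controls without passing the threshold. DICER1, which acts on the cut hairpins in the cytoplasm (−0.57, adjusted p 0.27), and the exporter XPO5 (−0.44, 0.22) were not called.

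Of 28 tested transcripts named as microRNA hosts, a group formed after the values were seen, 5 fell, against 1.92% of all genes called lower, and the rest were not called. The next 3 are among the 5. MIR34AHG, the host of miR-34a and a p53 target, gave 4.70, 2.43 and 8.45 CPM in the controls and 0.0694, 0.790 and 0.207 CPM in FCCP (log2 change −3.82, SE 0.67). MIR222HG, the host of miR-221 and miR-222, was at 9.92, 10.6 and 20.8 CPM in the controls and 2.01, 1.91 and 1.31 CPM in FCCP (−2.97, SE 0.44, adjusted p 0.0048). Both kept their calls in all 6 fits. MIR100HG measured 25.6, 29.7 and 35.3 CPM in the controls and 6.18, 14.5 and 18.6 CPM in FCCP (−1.20) and kept it in 1. Mature microRNAs were not measured in these poly-A libraries, so no microRNA level is given. The sequences from RefSeq (GRCh38.p14), with the seed (bases 2 to 8) in capitals, show that the pair from MIR222HG share a seed that miR-34a-5p does not have. The loci are chr1:9151735-9151756 for miR-34a-5p, chrX:45746180-45746202 for miR-221-3p and chrX:45747036-45747056 for miR-222-3p, all on the minus strand.
hsa-miR-34a-5p: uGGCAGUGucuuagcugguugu
hsa-miR-221-3p: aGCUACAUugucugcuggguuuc
hsa-miR-222-3p: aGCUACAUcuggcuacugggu

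Genes known as p53 targets divided. MDM2, the ubiquitin ligase that holds p53 down, gave 58.7, 60.96 and 61.01 CPM in the controls and 31.99, 31.99 and 29.2 CPM in FCCP (log2 change −0.95, SE 0.17), with little spread in either group, and held in all 6 fits. FDXR, mitochondrial ferredoxin reductase, was at 36.4, 35.2 and 32.3 CPM in the controls and 52.7, 73.7 and 83.5 CPM in FCCP (1.02, SE 0.19). BAX, the pore-forming promoter of apoptosis, measured 134, 155 and 173 CPM in the controls and 204, 274 and 314 CPM in FCCP (0.78), while BCL2, which opposes it, gave 1.72, 3.76 and 4.25 CPM in the controls and 0.902, 0.856 and 0.552 CPM in FCCP (−2.06, SE 0.45). In total 2 of 20 p53 targets rose (FDXR and BAX) and 3 fell (MDM2, GDF15 and MIR34AHG), with a median of −0.12, and 14 of 16 BCL2-family genes were not called. Among all genes tested 1.60% were called higher and 1.92% lower. BAX kept its call in 2 of 6 fits and BCL2 in 3.

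The known mitochondrial stress relay showed little common change. ATF4 was at 1006, 1002 and 709 CPM in the controls and 2269.8, 965 and 758 CPM in FCCP (log2 change 0.56, adjusted p 0.39). DDIT3, which encodes CHOP, measured 21.4, 17.5 and 19.4 CPM in the controls and 71.5, 18.04 and 13.2 CPM in FCCP, TRIB3 gave 48.9, 57.1 and 158 CPM in the controls and 187, 24.02 and 40.04 CPM in FCCP, and CHAC1, a glutathione-degrading ATF4 target, was at 19.7, 29.8 and 87.2 CPM in the controls and 136, 1.38 and 4.56 CPM in FCCP. FCCP 1 was the highest of the 6 libraries in these 4 genes, and FCCP 2 and FCCP 3 were within or below the control range. Over 29 ATF4 targets none rose and 2 fell, GDF15 and DDIT4, against 1.92% of all genes called lower. The list median was −0.10, and −0.69 without FCCP 1. With control 3 and FCCP 1 left out 1 rose and 7 fell, in a fit that called 8.28% of all genes either way. GDF15, a stress hormone, measured 44.2, 22.5 and 63.1 CPM in the controls and 15.4, 9.21 and 9.11 CPM in FCCP (−1.94, SE 0.39). DDIT4, which restrains mTORC1, gave 197, 399.6 and 134 CPM in the controls and 128, 95.5 and 62.0 CPM in FCCP (−1.35), and kept its call in 2 of 6 fits. The upstream genes OMA1 (−0.20), DELE1 (0.18) and EIF2AK1 (0.03), which encodes HRI, were not called.

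**Figure D3:**
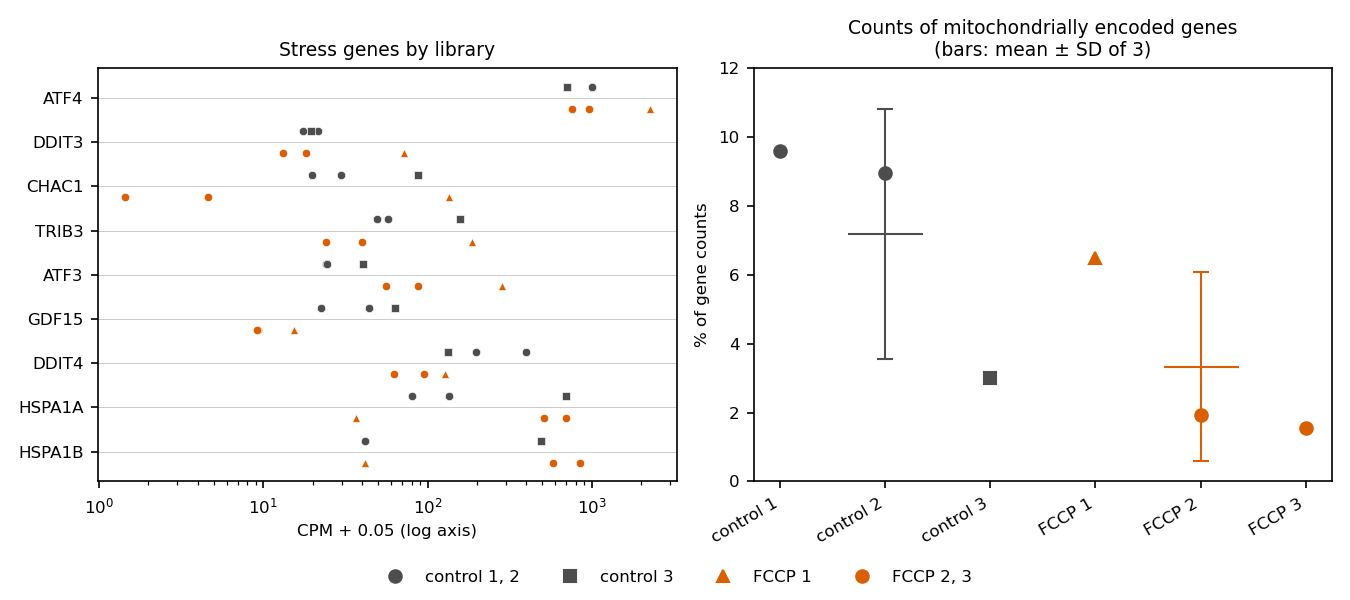
Left: CPM plus 0.05 (log axis) of stress genes in each library, grey for control and orange for FCCP. Right: share of gene counts from the 37 mitochondrially encoded genes in each library, with the mean and SD of each group of 3. FCCP 1 (triangle) is the highest library for ATF4, DDIT3, TRIB3 and CHAC1 and the highest FCCP library for the mitochondrial share.

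CHORDC1, an HSP90 co-chaperone, was the only call among 16 cytosolic heat shock genes (−1.26), where 3.52% of all genes tested were called. The CHORDC1 call was lost without control 3, FCCP 2 or FCCP 3. The list's summed level was 6125, 6032 and 15210 CPM in the controls and 7059, 7985 and 7357 CPM in FCCP, so control 3 alone was high. The list median was −0.34, and 0.31 without control 3. HSPA1A and HSPA1B, inducible HSP70 genes chosen after their values were seen, had another order. HSPA1A was at 136, 80.3 and 697 CPM in the controls and 36.8, 700.3 and 508 CPM in FCCP, and HSPA1B measured 41.5, 41.3 and 492 CPM in the controls and 41.6, 843 and 579 CPM in FCCP; these are near-identical copies, so reads may be divided between them. Control 3, FCCP 2 and FCCP 3 were high and the other 3 libraries low, and neither gene was called (adjusted p 0.79 and 0.39). With control 3 and FCCP 1 left out both were called higher, HSPA1A with a log2 change of 2.45 and HSPA1B with 4.07, and without control 3 alone HSPA1B was called at 3.53. The genes were chosen with this order of libraries seen, and these fits drop the high control. Such calls follow from that choice and are no separate test of a rise. None of 18 genes of the endoplasmic reticulum unfolded protein response was called (median 0.14).

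Mitochondrially encoded RNA varied widely within both groups. The 37 genes took 9.58, 8.95 and 3.0% of gene counts in the controls (7.18% ± 3.63, SD, n = 3) and 6.49, 1.94 and 1.55% in FCCP (3.33% ± 2.75, SD, n = 3). The groups overlapped, and a two-sided exact permutation test gave p = 0.20, where 0.10 is the smallest that 3 against 3 allows. None of the 13 mRNAs was called (median −1.02, and −1.83 without FCCP 1). Without control 3 and FCCP 1, which were the outlying values of their groups, 8 of the 13 fell (median −2.24). That fit drops the lowest control and the highest FCCP library, and it called 8.28% of all genes either way. Such calls follow from that choice and are no separate test of a fall. MT-TP, a transfer RNA gene, gave 105, 75.4 and 25.03 CPM in the controls and 11.6, 3.36 and 3.45 CPM in FCCP (−3.48, SE 0.66), and was called, and its FCCP values lay below all controls. MT-ND6, the complex I subunit coded on the same strand, was at 2063, 1466 and 342 CPM in the controls and 515, 145 and 108 CPM in FCCP (−2.33, adjusted p 0.074). The labels do not say whether the libraries kept the strand, so reads from both strands of this genome may not be separable.

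Nuclear genes of mitochondria gave 1 call or none per list, where 3.52% of all genes tested were called either way. No gene of 12 for fusion and fission (median −0.19), 12 for biogenesis (−0.13) or 14 for nucleotide carriers, uncoupling and calcium uptake (0.03) was called. Each of 4 further lists had a single rise, 2.56 to 8.33% of its genes. NDUFS4 (0.78) was the 1 call among 38 complex I subunits and UQCRC1 (0.60) among 39 subunits of complexes II to V. CLPP, the matrix protease, measured 65.4, 85.4 and 87.9 CPM in the controls and 115, 146 and 172 CPM in FCCP (0.86, SE 0.19), the 1 call of 12 chaperones and proteases. FKBP8, an outer-membrane mitophagy receptor, gave 539, 554 and 314 CPM in the controls and 772, 839 and 993 CPM in FCCP (0.89), the 1 call of 19 stress-sensing and mitophagy genes; PINK1 was not called (0.12, adjusted p 0.85). NDUFS4 and FKBP8 each kept the call in 1 of 6 fits, UQCRC1 in 2 and CLPP in 3.

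For energy metabolism outside mitochondria, the glycolysis and energy-sensing lists gave 1 call each. This was 4.17% and 6.67% of the genes tested, against 3.52% of all genes. SLC2A3, the high-affinity glucose transporter GLUT3, was at 52.9, 47.7 and 90.7 CPM in the controls and 207, 161 and 107 CPM in FCCP (log2 change 1.31, SE 0.27), the only call of 24 glycolysis genes (median −0.0011). Of 15 AMPK and energy-sensing genes only DDIT4 was called, as a fall. TXNIP, the glucose-sensing thioredoxin inhibitor, measured 688, 549 and 235 CPM in the controls and 85.0, 518 and 554 CPM in FCCP and was not called (−0.35, adjusted p 0.74).

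Of 28 lysosomal genes 2 rose, CTSA and the proton pump subunit ATP6AP1 (0.56), and none fell, against 1.60% of all genes called higher; 25 had positive estimates (median 0.41). CTSA, a lysosomal carboxypeptidase, gave 237, 223 and 238 CPM in the controls and 381, 412 and 422 CPM in FCCP (log2 change 0.80, SE 0.15). GRN, the precursor of lysosomal granulins, was at 304, 348 and 333 CPM in the controls and 613, 629.8 and 822 CPM in FCCP (1.07, SE 0.18). LAMTOR4, part of the scaffold that recruits mTORC1 to lysosomes, measured 43.4, 43.6 and 50.7 CPM in the controls and 85.5, 111 and 136 CPM in FCCP (1.27, SE 0.18, adjusted p 0.0038), and LAMTOR1, its membrane anchor, had a log2 change of 0.95. ITM2C, a membrane protein, gave 254, 234 and 351 CPM in the controls and 567, 620.3 and 806 CPM in FCCP (1.25). CTSA, GRN, LAMTOR4 and ITM2C were tight within groups and kept their calls in all 6 fits. With both outlying libraries out 11 of the 28 lysosomal genes were called higher, in a fit that called 8.28% of all genes either way. None of 21 autophagy genes was called. Abundant called genes included TMED9, a cargo receptor of the early secretory pathway (0.77), AP2S1, a clathrin adaptor subunit (0.87), RCN3, a calcium-binding protein of the endoplasmic reticulum (0.76), TSPO, an outer mitochondrial membrane protein (0.96), and RPL39, a ribosomal protein (0.87), all higher, and AHNAK, a giant scaffold protein, lower (−1.15). RCN3 kept its call in none of the 6 fits and AHNAK in 1.

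Several of the most stable changes belonged to no list. HES6, a member of the hairy and enhancer of split family, was at 13.8, 14.6 and 12.3 CPM in the controls and 43.9, 42.2 and 65.3 CPM in FCCP (log2 change 1.90, SE 0.23, adjusted p 0.0021). VAMP1, a vesicle fusion protein, measured 8.26, 11.1 and 11.5 CPM in the controls and 29.9, 47.9 and 41.3 CPM in FCCP (1.95, SE 0.26). IGFBP2, which binds insulin-like growth factors, gave 14.7, 12.7 and 12.95 CPM in the controls and 32.5, 41.3 and 47.98 CPM in FCCP (1.59, SE 0.22). HPS6, a subunit of a complex that builds lysosome-related organelles, was at 39.4, 37.8 and 31.7 CPM in the controls and 7.22, 6.78 and 13.5 CPM in FCCP (−1.98, SE 0.27). In these 4 genes the groups were far apart relative to their spread, and all held in all 6 fits, as did TUBB3, a beta-tubulin best known in neurons (2.07), TMEM255A (2.24) and ID4, an inhibitor of helix-loop-helix factors (2.53). Among genes at 5 CPM or more without overlap, the remaining largest changes were the rises of CCDC17 (2.32), KLHL15 (2.09) and RBM38-AS1 (2.01) and the falls of KRTAP2-3 (−3.62), LCMT2 (−2.45), PFDN5 (−2.43) and SYCP2 (−2.34). RBM38-AS1 is antisense to another gene and KRTAP2-3 has near-identical relatives, so their counts are less certain.

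Cell cycle genes were not called. None of 20 S-phase genes (median −0.02) and none of 20 mitosis genes (−0.12) passed the test, which 3.52% of all genes passed. Of 16 clock genes PER2 (−1.11) and NR1D2 (−0.79), both repressor-arm members, fell and none rose, against 1.92% of all genes called lower. With both outlying libraries out 5 fell, in a fit that called 8.28% of all genes either way. Of 15 snoRNA host genes SNHG5 (1.83) and SNHG7 (1.26) rose, against 1.60% of all genes called higher. None of the 42 ribosomal protein genes on a list without RPL39 was called, although 36 had positive estimates (median 0.33, and 0.15 without control 3), and none of 9 metallothionein and zinc genes or 16 Notch genes.

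**Figure D4:**
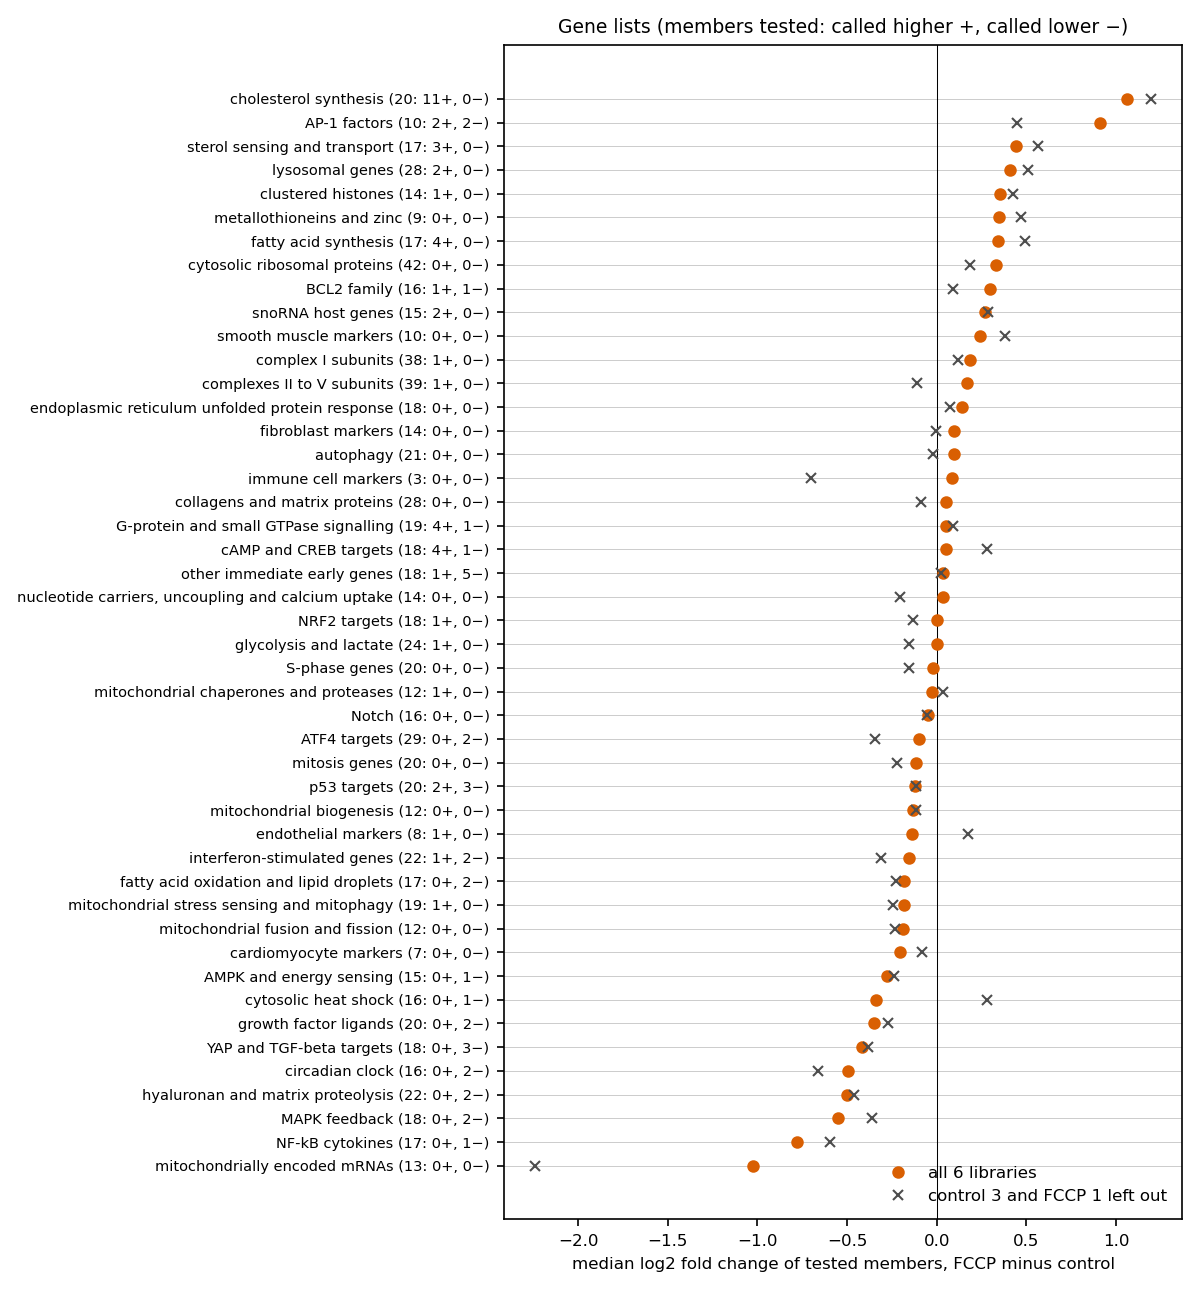
Median log2 fold change (FCCP minus control) of the tested members of each of 46 gene lists, with all 6 libraries (circles) and with control 3 and FCCP 1 left out (crosses); the labels give members tested and calls. Cholesterol synthesis is at the top in both, and the mitochondrially encoded mRNAs at the bottom in both.

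Called genes differed in length and base composition. The median transcript length was 2357 bases in genes called higher, 4512 in genes called lower and 3268 in all genes tested, and the median GC content was 57.7, 46.0 and 48.5%. With a smooth trend on length and GC taken out of each library, an alternative chosen after seeing the data, 381 genes were called, 302 of the 590 among them. In that fit 23 of the 115 named genes lost their call and 1, the uncalled CHAC1, changed sign. Whether length or GC caused single calls was not tested. Control 3 was the only one of the 6 libraries in the lower set of several-place reads: a fit with this set as a term called 938 genes, 536 of the 590 among them, while a fit of the higher set alone called 31, 26 among them.

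FCCP had also been given to preconditioned cells, a contrast that shares no library with the one above. There 39.4% of genes were called, and 224 of the 590 genes were called in the same direction (38.0% of the 590, 3.40% of the 6594), with 87 in the opposite direction. The difference between the contrasts was called for 19.0% of all genes and for 267 of the 590. The 590 were picked on FCCP minus control, which is part of this difference, so more calls among them are no separate finding. ARC (3.77 without and 4.36 with preconditioning), RASD1 (3.29 and 3.70), RGS2 (2.59 and 2.76), HES6 (1.90 and 1.69) and HAS2 (−4.07 and −4.13) moved in the same direction in both, with no call for the difference. The cholesterol list had a median of 1.06 without and −1.33 with preconditioning, where 16 of 20 enzymes fell, and the difference was called in 17. INSIG1 was 2.76 and −3.24, and FASN 1.81 and −2.85. Both started from a higher level with preconditioning alone. INSIG1 was at 1150, 1103, 702 and 1182 CPM there, and at 159, 77.1 and 91.5 CPM with preconditioning and FCCP. FASN was at 1726, 1441, 885 and 1312 CPM there, and at 250, 126 and 182 CPM with both. The controls held 35.2 to 115 CPM of INSIG1 and 192 to 264 CPM of FASN. DGCR8 fell only in the first contrast at these thresholds (−1.91 and −0.09, adjusted p of the difference 0.00095), likewise IFIT5 (−1.52 and 0.06, 0.0024). Both were named for a small adjusted p in the first contrast, which the difference includes.

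**Figure D5:**
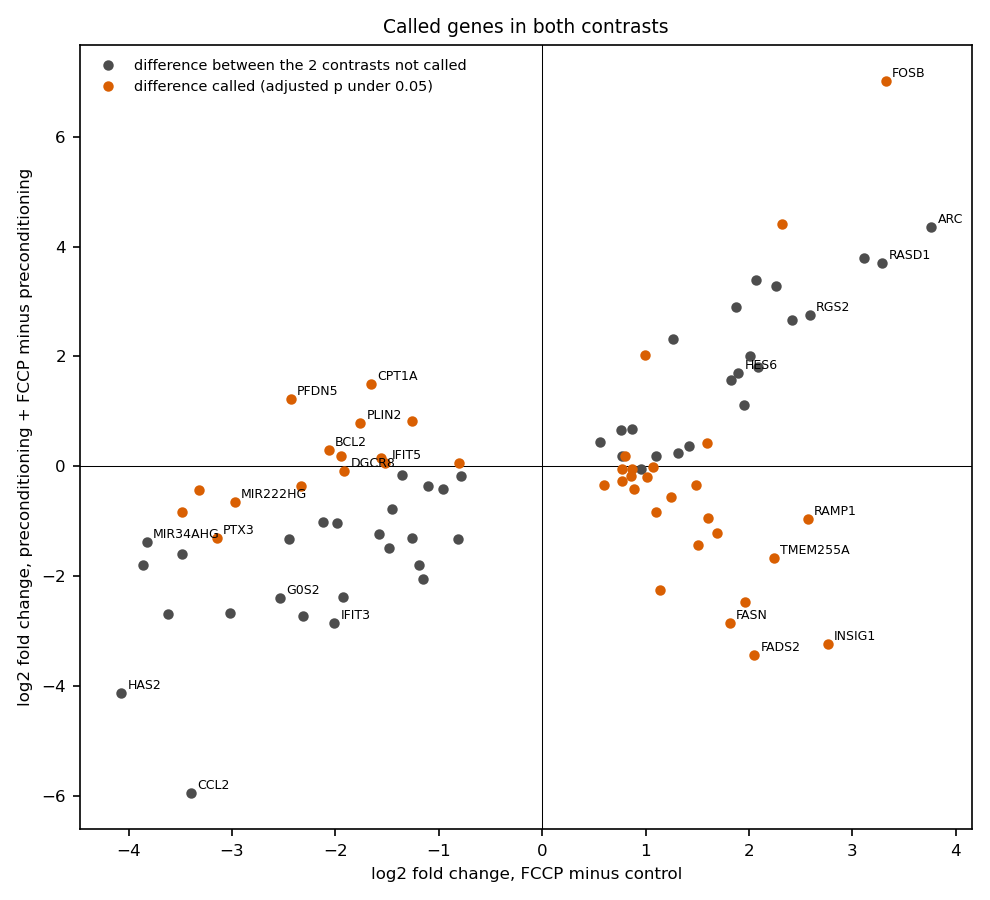
Log2 fold change of FCCP in cells without preconditioning (horizontal) against that in preconditioned cells (vertical) for the 88 called genes of the naming rule that are described in the text. Orange marks the 41 whose difference between the contrasts was called; INSIG1, FADS2 and FASN lie at lower right, and ARC, RASD1 and FOSB at upper right.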

How the data were processed

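Poly-A RNA from 13 AC16 libraries was measured as gene counts. The deposited values are whole-number counts per Ensembl gene; the submitters' processing notes name HISAT2, HTSeq and hg19, and versions, strand setting and annotation release are not given in the sources used here. Summary rows for reads outside genes, in several genes or at several places entered neither library sizes nor tests; per library, 2.30 to 5.20% of the reads tallied in the 6 files fell outside genes and 11.6 to 12.4% in several genes. Of 63241 gene IDs 42338 were given a symbol from a name table.

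From these counts all 13 libraries were fitted together with 1 term per group (edgeR 4.0.16 in R 4.3.3, filterByExpr, TMM, quasi-likelihood F test, Benjamini-Hochberg over 16756 genes), and FCCP was contrasted with control. A gene is called at an adjusted p under 0.05. Log2 changes are FCCP minus control, SE is the change divided by the square root of F, and CPM uses TMM library sizes. The code was tested on simulated data. DESeq2 1.42.0 and limma 3.58.1 were alternatives. Precision is set by counts per library and by 3 replicates per group.

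Members, the 46 gene lists (888 entries) and the naming rule were chosen with earlier results of these data known. The rule took the 15 largest called rises and 15 largest falls without overlap at 5 CPM or more, up to 4 called members per list by adjusted p (2 uncalled ones where none was called), 22 fixed genes, and the 10 called genes with the highest CPM and the 10 genes with the smallest adjusted p. FOS, EGR1, RGS4, GADD45B, ID4, HMGCS1, PNPLA2, IFIT1, DROSHA, DICER1, XPO5, MIR100HG, HSPA1A, HSPA1B, LAMTOR1 and LAMTOR4 were chosen after their values were seen, as were KLF10, CITED2, FDFT1, LSS, MSMO1, SC5D and CYP51A1. Some genes taken by the rule are not reported here. Replicate numbers were not used to pair the samples in the main fit. Deviations of same-numbered FCCP and control libraries correlated at −0.18, 0.07 and −0.19.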

Additional observations from a re-analysis of the deposited data

Results flagged for a closer look

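The FCCP effect was also estimated in preconditioned cells, and for 50 of the named genes the difference between the settings passed the interaction test (edgeR, adjusted p under 0.05); 19.0% of all genes tested did so. Values are log2 effects with preconditioning minus those without, so they share the libraries of the comparison above. Among sterol and fatty acid genes, which were higher with FCCP in the first setting and lower in the second for most members, the difference was called for INSIG1 (−6.01), FADS2 (−5.48), HMGCS1 (−4.87), FASN (−4.67), DHCR7 (−4.42), FADS1 (−3.39), ACAT2 (−2.94), MVD (−2.90), MVK (−2.54), SREBF2 (−2.26), ACSL3 (−1.93) and IDI1 (−1.83). Among lipid droplet and fatty acid import genes the difference was called for PLIN2 (2.54) and CPT1A (3.14). Among early-response, feedback and signalling genes the difference was called for FOSB (3.69), FOS (4.03), RAMP1 (−3.54), RGS4 (−2.65), KLF2 (1.71) and SPRED2 (0.86). Among secreted factors and the microRNA pathway the difference was called for EDN1 (2.89), PTX3 (1.84), MIR222HG (2.32), DGCR8 (1.82) and IGFBP2 (−1.17). Among interferon genes the difference was called for IFIT5 (1.57) and IRF7 (1.03). Among stress and apoptosis genes the difference was called for DDIT3 (2.70), ATF4 (1.43), GDF15 (2.13), CHORDC1 (2.09), BCL2 (2.35), FDXR (−1.21) and BAX (−1.04). Among mitochondrial genes the difference was called for MT-TP (2.66), PINK1 (−1.47), FKBP8 (−1.30), CLPP (−1.03), UQCRC1 (−0.95) and NDUFS4 (−0.83). Among lysosomal and membrane traffic genes the difference was called for LAMTOR1 (−1.83), ITM2C (−1.81), GRN (−1.08), LAMTOR4 (−0.95), AP2S1 (−0.93) and CTSA (−0.62). Among other named genes the difference was called for PFDN5 (3.65), TMEM255A (−3.92), CCDC17 (2.08) and SYCP2 (1.98).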

How the results depend on the processing

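The number of genes called, 590 in the 13-library fit, was within 1.5 times of this with DESeq2 size factors (561), library totals (395), a stricter filter (654) and mitochondrial genes left out (598). It was 1078 with no filter, 1326 with DESeq2, 382 with limma-voom, 938 with the set of several-place reads as a term, 1442 without control 3 and FCCP 1, and 23 at an adjusted p under 0.01. It was 17 with the compared groups alone. Of 2 alternatives chosen after seeing the data, taking out the length and GC trend gave 381 calls and fitting the libraries of the higher several-place set alone gave 31. With the replicate number as a block 53 genes were called, all among the 590, and the cholesterol list had 1 call. Same-numbered FCCP and control libraries did not deviate together. Their correlations rest on 3 libraries per group and leave out the preconditioned groups, so they cannot say what the block removed. Leaving out 1 library gave 142 (without FCCP 2) to 893 (without FCCP 1) calls. The cause of these shifts was not tested; fits with fewer libraries have fewer residual degrees of freedom. The interaction, 3180 calls, gave 1897 with the replicate block, 4031 with DESeq2, and 2076 to 4576 without 1 library, lowest without FCCP 3 and highest without FCCP 1. The difference in mitochondrially encoded share kept its sign under each alternative (−2.45 to −5.94 percentage points).

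Of 115 named genes 9 changed direction in at least 1 fit, and these were uncalled with all libraries. Over 2183 values of these genes in other fits, 508 lost a call, 24 gained one and 29 changed sign. Without control 3 and FCCP 1 the log2 changes were −0.26 for ATF4, −0.35 for DDIT3, −3.10 for CHAC1, 0.048 for OMA1 and −0.24 for EIF2AK1. CHAC1 was −0.081 with library totals, −1.97 with limma-voom, −0.72 with the replicate block and −0.21 with the length and GC trend out. With the several-place set as a term TRIB3 was 0.52 and EIF2AK1 −0.082; within the higher set alone they were 0.73 and −0.17. Leaving out 1 library gave ranges of −0.10 to 0.83 for ATF4, −0.34 to 1.21 for DDIT3, −3.97 to 0.93 for CHAC1, −1.49 to 0.66 for TRIB3, −0.046 to 0.20 for PINK1, −0.72 to 0.10 for TXNIP, −0.58 to 0.080 for OMA1, −0.23 to 0.20 for EIF2AK1 and −0.18 to 1.91 for HSPA1A. For ATF4, DDIT3, CHAC1 and TRIB3 the lowest value was the one without FCCP 1. Depth limits genes near 0 counts most, such as ARC in the controls.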

Other observations

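Zinc finger genes, a family chosen after the values were seen and taken as the tested genes whose symbol is ZNF and a number, leaned towards falls. ZNF genes encode DNA-binding proteins, many of them repressors. Of 503 tested, 29 were called lower and 2 higher (ZNF219 and ZNF580), which is 5.77% called lower against 1.92% of all genes, and their median log2 change was −0.36 with 365 negative. ZNF737 had a log2 change of −2.56, ZNF549 of −1.71 and ZNF772 of −1.65. Their median length was 3885 bases, and with the length and GC trend taken out 16 were called lower and 1 higher with a median of −0.25. Without control 3 and FCCP 1 the counts were 40 lower and 4 higher, in a fit that called 8.28% of all genes either way.

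Transcripts named as microRNA hosts, also grouped after their values were seen, gave 5 falls and no rise among 28 tested, against 1.92% of all genes called lower, with a median log2 change of −0.58. Beside MIR34AHG, MIR222HG and MIR100HG these were MIR503HG (−2.33) and MIRLET7A1HG (−1.80). Without control 3 and FCCP 1 there were 7 falls and 1 rise, and the median was −0.37. That fit called 8.28% of all genes either way. Of 14 HLA genes tested 1 had a negative estimate and only HLA-DMA, which loads peptides onto class II molecules, was called (1.39). HLA genes are near-identical in parts, so reads may be divided between them. The TMED cargo receptors gave 2 rises, TMED9 and TMED3 (0.74), and no fall among 11 tested. Their median log2 change was 0.13 with 3 negative, and 1 was called higher with the length and GC trend taken out. Neither the HLA nor the TMED genes were a planned group, and 1.60% of all genes tested were called higher.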
